A study of Mus musculus with 6 samples.

Results

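The genes described here are 39 cell cycle genes, found by matching their symbols to the names of 31054 measured features in a single-cell RNA sequencing matrix from a study of mouse embryonic osteoclast precursors. All 39 were found. They fall into 15 genes of DNA replication whose RNA is highest in S phase, 17 genes of G2 and mitosis, and 7 regulators (the D and E cyclins and inhibitors of cyclin-dependent kinases). Membership used the gene names alone. The question is which tissue macrophages, osteoclasts and precursors carried these RNAs.

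The labels give 6 samples in 3 groups of 2. Cx3cr1CreER; R26tdTomato embryos were exposed to 4-hydroxytamoxifen at E9.5, and Csf1r-Mer-iCre-Mer; Csf1r-EGFP; R26tdTomato embryos at E8.5, in each case through the pregnant mother; macrophage and monocyte lineage cells were taken from whole embryos at E14.5. The 2 remaining samples are total bone marrow of 2-month-old C57BL/6 wildtype mice, with no tamoxifen; the labels do not say how many animals went into a sample. In the embryos tdTomato marks cells in which an inducible Cre, driven by Cx3cr1 or Csf1r, was active around the injection, together with their progeny, so it marks only the fraction of cells that recombined. The barcodes of the deposited matrix end in 1 of 4 library numbers that match no sample name, so no sample groups could be compared, and all values below describe 1 pooled matrix and its 4 libraries with no test across samples. The name of the deposited matrix refers to the Cx3cr1 and Csf1r embryos only, and tdTomato UMIs were found in 693, 738, 549 and 858 tissue macrophage barcodes of libraries 1 to 4 after the thinning described below.

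A dividing cell passes through a gap, copies its DNA in S phase, passes a second gap, G2, and divides in mitosis, M. Cyclin D and cyclin E with their kinases release E2F factors that switch on the replication genes, while mitotic genes are switched on later through promoter elements called CHR and CCAAT boxes, bound by the DREAM and MMB complexes and by NF-Y. Embryonic tissue macrophages are known to divide in place, whereas the mature osteoclast, the multinucleated bone-resorbing cell, forms by fusion of precursors that have left the cycle.

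The upstream sequence of members that rose and fell together is shown to make those elements visible. RefSeq start sites (GRCm38.p6) were available for 31 of the 39 members; Mcm4, Gmnn, Ccna2, Tpx2, Aurkb, Ccnd1, Ccnd2 and Ccne2 had no entry. Each sequence below is the 150 bases before a start, read 5′ to 3′ on the gene's strand, and capitals mark every searched motif on either strand: the E2F-type octamers TTTCCCGC, TTTGGCGC and TTTCGCGC, the CHR hexamers TTTGAA and TTTAAA, and CCAAT. Where an octamer on one strand overlaps one on the other, the capitals run together.
Mcm6: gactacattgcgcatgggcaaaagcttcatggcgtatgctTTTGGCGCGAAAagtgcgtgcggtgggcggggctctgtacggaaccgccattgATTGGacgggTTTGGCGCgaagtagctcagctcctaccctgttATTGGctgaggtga
Cdk1: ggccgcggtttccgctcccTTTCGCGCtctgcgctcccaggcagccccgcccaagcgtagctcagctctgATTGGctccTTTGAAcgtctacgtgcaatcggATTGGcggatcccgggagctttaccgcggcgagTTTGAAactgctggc
Top2a: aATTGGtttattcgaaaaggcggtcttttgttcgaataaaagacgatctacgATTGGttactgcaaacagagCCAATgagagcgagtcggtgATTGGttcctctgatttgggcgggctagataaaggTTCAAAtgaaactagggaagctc
Cdc20: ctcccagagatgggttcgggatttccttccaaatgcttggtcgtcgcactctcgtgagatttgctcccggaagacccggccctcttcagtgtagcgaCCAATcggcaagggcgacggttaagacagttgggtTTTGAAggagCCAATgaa
The Mcm6 window lies at chr1:128359706-128359855 (minus strand), that of Cdk1 at chr10:69352913-69353062 (minus), that of Top2a at chr11:99024190-99024339 (minus) and that of Cdc20 at chr4:118437344-118437493 (minus). Within the 250 bases before a start, an E2F-type octamer was present in 5 of 13 S phase members and 1 of 14 G2/M members with an entry (the latter is Cdk1), against 1.78% of all genes. A CHR hexamer was present in 2 of the 13 and 10 of the 14, against 28.1% of all genes, and a CCAAT box in 9 and 13, against 37.5%. CHR and CCAAT occurred in the same gene's windows in 9 of the 14 G2/M members (64.3%) and 11.2% of all genes. These are counts of letters, not of binding.

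Cell types were sought by thresholds (gates) on marker genes that contain no member of the module. They were read on 34587 of 39048 barcodes that passed a filter on depth and mitochondrial RNA. A class was given to 24434 of these, while 9249 passed no gate and enter no class value. Osteoclast barcodes, for example, were those with at least 10 UMIs (counted RNA molecules) of Ctsk, Acp5, Mmp9 and Atp6v0d2 per 10000 and at least 2 of these genes. Genes held out of the gates fitted the osteoclast name: Ocstamp and Dcstamp, needed for osteoclast fusion, reached 161 and 159 CPM (UMIs per 1000000 UMIs of the class) there against 0.546 and 0.159 in tissue macrophages, and Nfatc1, the main osteoclast transcription factor, 284 against 14.97. C1qa, a macrophage complement gene, stood at 2672 CPM in tissue macrophages and 243 in the osteoclast barcodes. The 7 tissue macrophage gate genes summed to 142 CPM in osteoclasts and 6599 in tissue macrophages. The 4 osteoclast gate genes summed to 8067 and 26.0 CPM in that order. The gates set these levels, so they do not check the names. In osteoclasts the 6 microglia genes summed to 67.2 CPM and the 4 mature neutrophil genes to 5.79. C1qa was also found at 190 CPM in mature neutrophils, which are not known to make it. Whether free RNA in the droplets or doublets gave this level was not tested. In total 761 barcode sequences occurred in more than 1 library, and 904 barcodes that passed gates of different families were left out as possible doublets. The libraries held 7063 to 11959 kept barcodes with a median of 13077 to 14957 UMIs.

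A barcode was called high for S phase or G2/M when it held at least 5 UMIs of that list after being thinned at random to 5000 UMIs, which is 10 per 10000. Mature neutrophils, which have left the cycle, give the background: 8.39% were S phase high and 10.3% G2/M high (310 barcodes deep enough of 519, with 130 of them in library 3 and 177 in library 4; the median depth of the 519 was 5805 UMIs). High is a statement on these RNAs and does not by itself show division. In tissue macrophages (Lyve1, Mrc1, Pf4, Cbr2, Folr2, Cd163 and Ms4a7; 7271 barcodes of 8018 were deep enough) 46.7% were S phase high, at 45.6, 46.1, 50.3 and 46.2% in libraries 1 to 4. The G2/M share was 33.8%, at 34.9, 31.6, 35.8 and 33.3%. Both shares were above the pooled neutrophil shares in every library. Without thinning they were 42.6 and 31.5%. After thinning, 7.01% of tissue macrophage barcodes held 1 S phase UMI too few to be high and 6.51% exactly enough, and for G2/M 4.69 and 3.33%.

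Osteoclast barcodes were few, 89 of 100 after the depth limit, and their shares overlapped those of tissue macrophages. The S phase share was 40.4% (exact binomial 95% interval 30.2 to 51.4%, counting error only, as for all intervals here) and the G2/M share also 40.4%. By library the S phase share was 50, 33.3, 33.3 and 42.4%, and the G2/M share 40.0, 33.3, 28.6 and 51.5%. These ranges overlapped those of tissue macrophages, and each interval held the macrophage value. For G2/M without thinning the osteoclast share was 52.0% and the tissue macrophage share 31.5%, with median depths of 20644 and 13260 UMIs.

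Microglia, the macrophages of the brain, had lower shares than tissue macrophages in all 4 libraries. Their S phase share was 27.7% (26.7, 24.7, 30.6 and 31.4% in libraries 1 to 4; 884 barcodes) and their G2/M share 24.7% (20.7, 24.7, 25.9 and 28.7%). Kupffer or erythroblastic island macrophages (Clec4f, Timd4, Vsig4, Cd5l, Spic), which live in liver and beside maturing red cells, stood near tissue macrophages for S phase, at 47.0%. Their G2/M share was higher, at 41.7%, over the 647 barcodes of 878 that were deep enough. Their library values ran from 41.6 to 56.9% for S phase and from 32.6 to 56.9% for G2/M, and in library 1 both were below the tissue macrophage value. Summed over all barcodes of any depth, G2/M RNA did not stand higher: it was at 1511 CPM against 1536 in tissue macrophages. Of the 17 G2/M members 11 were lower and 6 higher.

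Precursors split into 2 kinds. Barcodes high in Clec4a1, Clec4a2, Clec4a3 and Socs3, a profile between monocyte and macrophage, resembled macrophages, with an S phase share of 37.5% and a G2/M share of 35.0% over 1034 barcodes. Their S phase share was below that of tissue macrophages in every library (30.4, 34.1, 44.6 and 44.7%). Barcodes with Ccr2, Cd34 and Ifitm1, called monocyte progenitors here, were far higher at 77.4% for S phase (74.9, 74.8, 78.8 and 81.1%) and 69.5% for G2/M (65.3, 67.5, 75.1 and 71.8%) over 2505 barcodes. Monocytes high in Ly6c2 followed at 60.5 and 65.1%, and granulocyte-monocyte progenitors (Elane, Mpo, Ctsg and others) led at 96.1 and 90.1%. In each library the S phase order was granulocyte-monocyte progenitor, monocyte progenitor, Ly6c2-high monocyte, and microglia were lowest of the 9 classes ranked, which leave out osteoclasts.

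**Figure D1:**
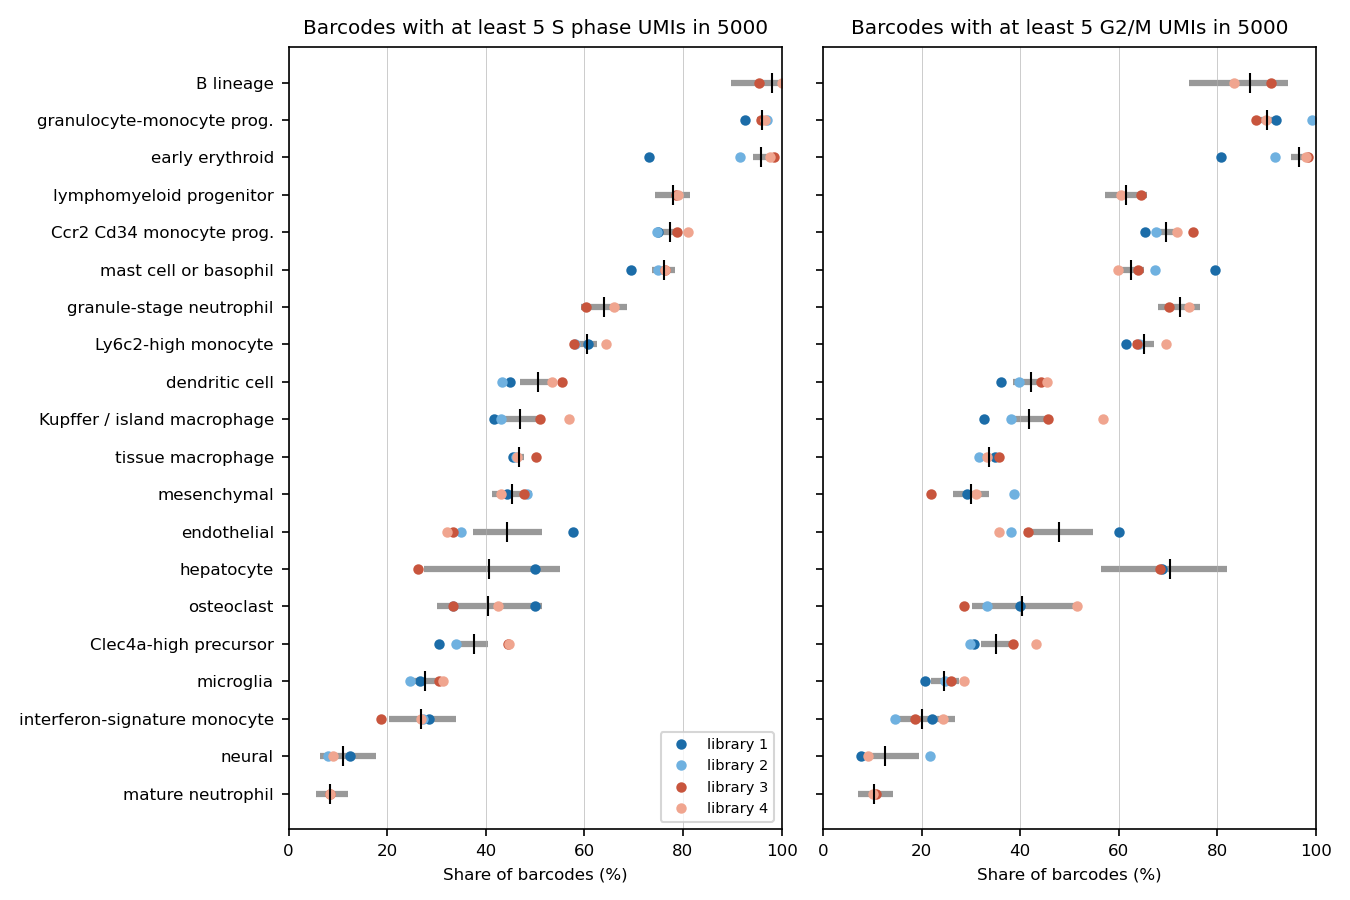
Share of barcodes (x axis, percent) with at least 5 S phase UMIs (left) or G2/M UMIs (right) after thinning to 5000, for each gated class (y axis). Black ticks are pooled shares, grey bars exact binomial 95% intervals, and coloured dots the libraries with at least 15 barcodes; tissue macrophages sit at 46.7 and 33.8%, the monocyte progenitors at 77.4 and 69.5% and the mature neutrophils at 8.39 and 10.3%.

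Pooled over libraries, all 15 S phase members were lower in microglia and higher in monocyte progenitors than in tissue macrophages. In osteoclasts they were mixed, with 6 higher and 9 lower. Mcm6, a subunit of the helicase that opens DNA at replication origins, was at 141, 161, 146 and 136 CPM in libraries 1 to 4 in tissue macrophages. It was at 171, 143, 161 and 139 CPM in osteoclasts and at 183, 214, 189 and 200 CPM in monocyte progenitors. In microglia it fell to 72.5, 81.6, 76.5 and 78.0 CPM, below every tissue macrophage library, while osteoclasts and tissue macrophages overlapped. Slbp, which binds histone messenger RNA, stood at 131, 136, 137 and 119 CPM in tissue macrophages, 105, 111, 87.7 and 99.2 in osteoclasts, and 218, 244, 205 and 207 in monocyte progenitors. Pcna, the sliding clamp of the replicative polymerases, stood at 120, 118, 129 and 122 CPM in tissue macrophages, 117, 92.1, 69.3 and 98.1 in osteoclasts, and 155, 166, 159 and 162 in monocyte progenitors. For Slbp and Pcna all 4 osteoclast libraries lay below all 4 of tissue macrophages and all 4 progenitor libraries above.

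Changes are given on the log2 scale of CPM plus a pseudocount of 10, and a gene is called when it passes 2-fold. Shares of all genes are over those with at least 20 CPM in either class, a level that Cdc6 and Ccne2 did not reach in most comparisons nor Cdkn1b in microglia; medians and counts of members are over the whole list. No S phase or G2/M member passed 2-fold in osteoclasts, microglia, Kupffer or island macrophages or Clec4a-high barcodes against tissue macrophages. The share of all genes passing upward and downward was 6.82 and 11.1% in osteoclasts, 4.52 and 3.35% in microglia, 4.02 and 3.41% in Kupffer or island macrophages and 2.01 and 2.72% in Clec4a-high precursors. The median over the 15 S phase members was -0.02 in osteoclasts (0.03 over all 5878 genes compared), with library values from -0.16 to 0.02, and -0.11 without Cdc6, the member under 20 CPM. The 12 members not given by library ran from -0.54 (Mcm3) to 0.78 (Rrm2), with Cdc6, Ung and Hells, a helicase of the SNF2 family, at -0.02, -0.01 and 0.08. In osteoclasts 7 of the 15 lay below and 2 above all tissue macrophage libraries, where the shares of all genes were 26.8% and 27.7%. The 7 were Mcm2, Mcm3, Mcm4, Mcm5, Pcna, Tyms and Slbp. The 2 above were Mcm7, at 115 against 85.3 CPM, and Rrm2, a subunit of the enzyme that makes deoxynucleotides, at 127 against 69.7 CPM, which is 1.82-fold higher. The subunits of the Mcm helicase thus differed among themselves: the library values of Mcm2 to Mcm5 were lower, those of Mcm6 overlapped and those of Mcm7 were higher. In Kupffer or island macrophages 4 of 15 lay below (Mcm2, Mcm3, Mcm6 and Slbp) and 1 above (Rrm2), where the shares of all genes were 25.6% and 21.2%.

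In microglia the S phase median was -0.54 (-0.09 over all genes), and 14 of 15 members lay below all tissue macrophage libraries, against 34.7% of all genes. Rrm2 was the exception at 62.9 against 69.7 CPM. In monocyte progenitors the median was 0.57 (0.05 over all genes) and 14 of 15 lay above all tissue macrophage libraries, against 39.9% of all genes. Ung, which removes uracil from DNA, was the exception, at 42.9 against 41.0 CPM. Rrm2 was the only S phase member past 2-fold there, at 171 CPM, 1.18 higher on the log2 scale, where 3.55% of genes passed upward and 7.97% downward.

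Mitotic genes separated the monocyte progenitors from tissue macrophages further. Birc5, survivin, a part of the chromosomal passenger complex, was at 242, 228, 250 and 229 CPM in tissue macrophages and at 410, 421, 434 and 399 in monocyte progenitors. It was at 266, 219, 200 and 266 CPM in osteoclasts and at 120, 157, 153 and 173 in microglia. For Birc5 the osteoclast libraries thus straddled those of tissue macrophages and the microglia libraries lay below. Ube2c, the ubiquitin carrier of the anaphase-promoting complex, was at 177, 158, 186 and 186 CPM in tissue macrophages and at 370, 374, 430 and 376 in monocyte progenitors. In osteoclasts it ran from 147 CPM in library 3 to 356 in library 1. Cdk1, the kinase that starts mitosis, was at 139, 139, 177 and 160 CPM in tissue macrophages, 151, 111, 97.9 and 163 in osteoclasts, and 187, 205, 219 and 206 in monocyte progenitors.

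Over the 17 G2/M members the median difference from tissue macrophages was 0.95 in monocyte progenitors, where 5 passed 2-fold (Ccna2, Ube2c, Aurka, Aurkb and Cdc20), against 3.55% of all genes, and 16 lay above all tissue macrophage libraries, against 39.9%. The member with the smallest difference there was Cenpf, at 92.2 against 69.1 CPM, and Hmmr, which binds spindle microtubules, overlapped, at 73.5 against 53.3 CPM. In Ly6c2-high monocytes it was 0.99, with 8 past 2-fold, where 6.22% of genes passed upward and 8.69% downward, and 16 above all tissue macrophage libraries, where 34.5% of genes lay above and 37.1% below. The 8 comprise cyclins A2, B1 and B2, the mitotic kinases Aurka, Aurkb and Plk1, and Ube2c and Cdc20, which act in the anaphase-promoting complex. Monocytes and monocyte progenitors differed from each other by a median of 0.08 for G2/M and -0.15 for S phase, and no member of these lists passed 2-fold, where 1.94% of genes passed upward and 0.453% downward. The same held for granulocyte-monocyte progenitors against Ly6c2-high monocytes, with medians of -0.05 and 0.31, where 3.92% passed upward and 6.66% downward. In Clec4a-high precursors the G2/M median was 0.20 and 7 of 17 members lay above all tissue macrophage libraries, against 21.6% of all genes, while the S phase median was -0.09 with 4 of 15 below, against 26.6%. With a stricter gate these medians became -0.11 and -0.37, so the sign for G2/M depends on where the gate is set. In osteoclasts the G2/M median was 0.09, from -0.32 in library 3 to 0.29 in library 4, and 1 of 17 members, Ccna2 (87.2 against 66.5 CPM), lay above all tissue macrophage libraries, against 27.7% of all genes. The 14 G2/M members not given by library ran there from -0.49 (Aurkb) to 0.64 (Cdc20), with Mki67, the common proliferation marker, at 0.01 and Cenpe, a kinetochore motor, at -0.12. In microglia the G2/M median was -0.25 and in Kupffer or island macrophages -0.11, and no member passed 2-fold in either. Only 3 of the 17 (Ccnb2, Birc5 and Aurkb) lay below all tissue macrophage libraries in microglia, against 34.7% of all genes. The other 14 overlapped.

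**Figure D2:**
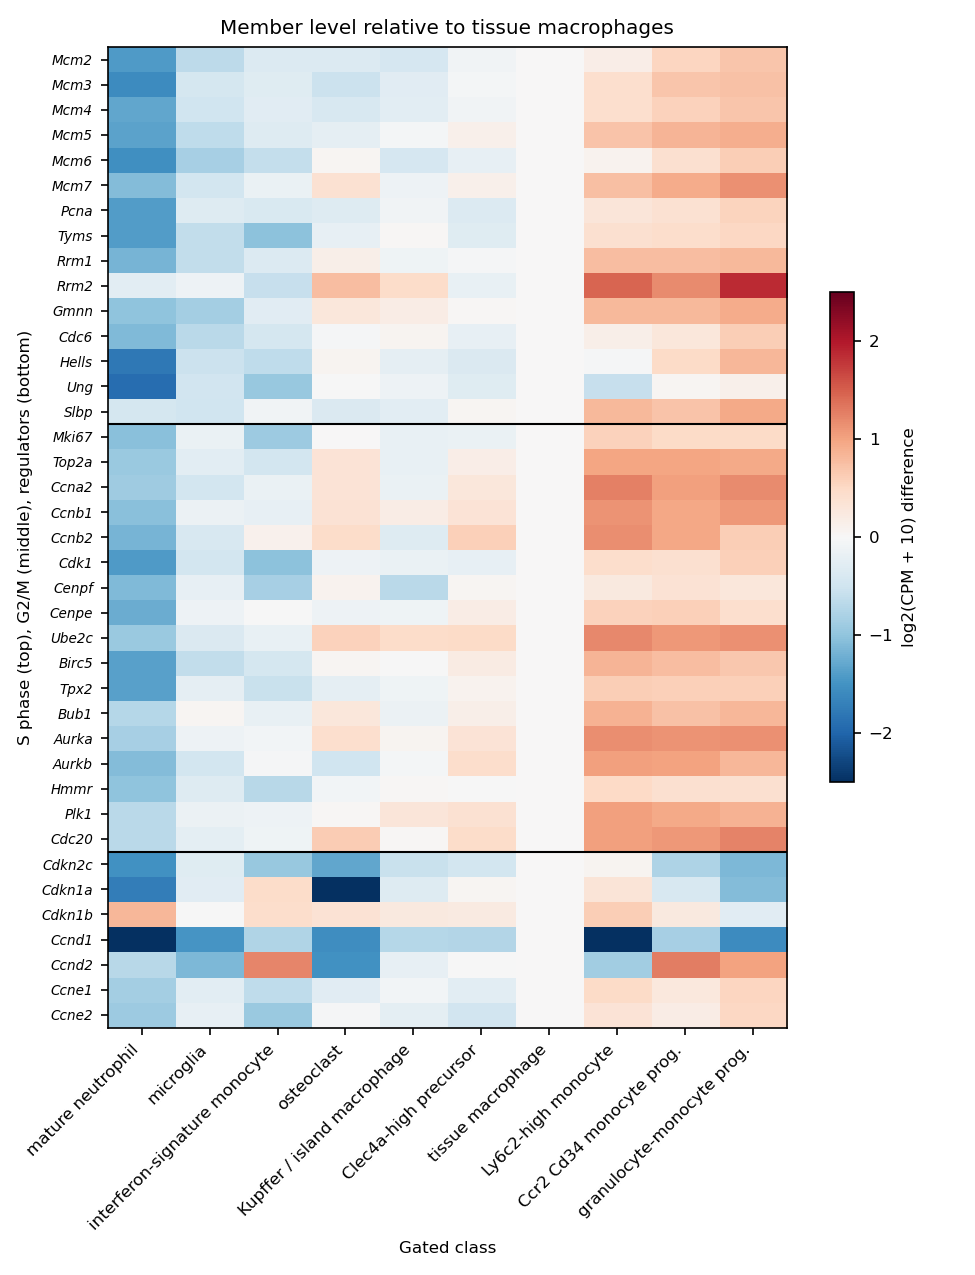
Difference of each member (rows, S phase above, G2/M in the middle, regulators below) from its level in tissue macrophages, as log2(CPM + 10), for 10 gated classes (columns); red is higher and blue lower. S phase and G2/M rows shift together from mature neutrophils to granulocyte-monocyte progenitors, with medians of -0.54 and -0.25 in microglia and 0.57 and 0.95 in monocyte progenitors, whereas Cdkn1a, Ccnd1, Ccnd2 and Cdkn2c are past 2-fold lower in osteoclasts.

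Across the 20 gated classes, the S phase and G2/M members followed the summed level of their own list, each member left out of its sum, with Pearson r from 0.77 (Ung) to 0.98 (Rrm1). The classes share libraries and depth, so this is a description. The regulators did not all follow: against the S phase sum, r was 0.61 for Ccne1, 0.65 for Ccne2, 0.27 for Ccnd2, -0.08 for Cdkn1a, 0.06 for Cdkn2c, -0.36 for Ccnd1 and -0.65 for Cdkn1b. Early erythroid barcodes held the highest S phase sum of the classes named here, 3718 CPM, and were the class whose S phase sum exceeded the G2/M sum, 3446 CPM, by a ratio of 1.08. Tissue macrophages summed to 1324 and 1536 CPM, osteoclasts to 1293 and 1793, microglia to 860 and 1191, and mature neutrophils to 509 and 644.

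Past 2-fold, members differed between osteoclasts and tissue macrophages only among the regulators. Of the 7, 4 were lower than in tissue macrophages past 2-fold, where 11.1% of genes passed downward, and none was higher, where 6.82% passed upward. The same 4 lay below all tissue macrophage libraries, against 26.8% of all genes. Such counts were not particular to osteoclasts. In microglia and in Clec4a-high precursors 4 of 7 regulators also lay below, against 34.7 and 26.6% of all genes. In Kupffer or island macrophages 2 of 7 did, against 25.6%. The osteoclast median over the 7 was -1.29, and from -1.23 to -0.77 in single libraries. With a pseudocount of 50 CPM the differences of Cdkn2c and Ccnd2, which rest on 28 and 11 osteoclast UMIs, became -0.60 and -0.59, which leaves 2 of 7 past 2-fold. Cdkn1a (chr17:29090979-29100722), which encodes the inhibitor p21, was at 161, 156, 179 and 184 CPM in tissue macrophages and at 22.0, 34.9, 12.2 and 17.8 in osteoclasts. That is 20.03 CPM pooled (exact Poisson 95% interval 14.6 to 26.8) against 169, or 8.42-fold lower. No other macrophage class approached this: Cdkn1a was at 133 CPM in Kupffer or island macrophages, 136 in microglia and 174 in Clec4a-high precursors. The osteoclast level was below the 43.7 CPM of mature neutrophils and above that of hepatocytes and early erythroid barcodes, at 9.58 and 6.27 CPM.

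Cyclin D1 and D2 pair with Cdk4 and Cdk6 to carry growth factor signals into the cycle. Ccnd1 (chr7:144929931-144939831) was at 134, 142, 152 and 136 CPM in tissue macrophages and at 44.1, 79.4, 59.1 and 15.6 in osteoclasts, 3.41-fold lower pooled. Ccnd2 (chr6:127125162-127152188) was at 26.8, 32.5, 34.6 and 38.0 CPM in tissue macrophages and at 7.34, 0, 4.08 and 5.57 in osteoclasts. The osteoclast total for Ccnd2 was 11 UMIs, or 4.90 CPM, 6.64-fold lower. Microglia shared this pattern, at 43.9 CPM for Ccnd1 and 9.40 for Ccnd2, and these were the 2 regulators past 2-fold there, where 3.35% of genes passed downward. Ly6c2-high monocytes had less Ccnd1 than any macrophage class, at 13.1 CPM, and 13.4 CPM of Ccnd2, while their S phase and G2/M shares were 60.5 and 65.1%. Monocyte progenitors had 73.8 CPM of Ccnd1 and more Ccnd2 than the monocyte and macrophage classes, 93.0 CPM, at 69.6, 61.5, 121 and 123 in libraries 1 to 4. Ccnd1 and Ccnd2 thus did not rank the classes as the S phase share did. Ccnd3, the D cyclin outside the module, named here after its values were seen, was at 374 CPM in Ly6c2-high monocytes, 240 in monocyte progenitors, 235 in granulocyte-monocyte progenitors, 147 in Clec4a-high precursors, 95.12 in tissue macrophages, 44.6 in microglia and 43.6 in osteoclasts. It was also at 352 CPM in mature neutrophils, the class with the lowest shares. Cdk4, their kinase partner, was at 381 CPM in osteoclasts and 327 in tissue macrophages.

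Cdkn2c (chr4:109660876-109666756) encodes p18, an inhibitor of Cdk4 and Cdk6. It was at 47.9, 43.5, 46.3 and 42.0 CPM in tissue macrophages and at 16.5, 6.35, 4.08 and 16.7 in osteoclasts, a total of 28 UMIs and 3.61-fold lower. Cdkn1b, which encodes p27, ran the other way at 23.6 CPM in osteoclasts and 16.3 in tissue macrophages, 1.45-fold. All 4 osteoclast libraries (25.7, 34.9, 18.3 and 21.2 CPM) lay above all 4 of tissue macrophages (17.1, 15.1, 16.9 and 16.2), as did 27.7% of all genes. Cdkn1b also lay above in Kupffer or island macrophages (20.5 CPM in Clec4a-high precursors, likewise above, and 21.2 CPM here). The shares of all genes above were 21.2% in Kupffer or island macrophages and 21.6% in Clec4a-high precursors. The E cyclins, which drive entry into S phase with Cdk2, overlapped between the 2 classes. Ccne1 was at 22.0, 15.9, 16.3 and 12.3 CPM in osteoclasts and 21.0, 20.2, 24.4 and 22.6 in tissue macrophages, and Ccne2 at 12.9, 22.2, 16.3 and 14.49 against 16.7, 18.8, 15.2 and 13.4. In osteoclasts, then, 2 D cyclins and 2 inhibitors were past 2-fold lower while no replication or mitotic member passed 2-fold in either direction.

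Immediate early genes, which dissociation can induce, were lower in osteoclasts together with Cdkn1a. The 9 genes Fos, Fosb, Jun, Junb, Egr1, Ier2, Atf3, Dusp1 and Zfp36 summed to 1764 CPM in osteoclasts (1351 to 3055 by library) and 6106 in tissue macrophages (5926 to 6240). All 9 were lower in osteoclasts, 8 of them to at most 1/2, where 11.1% of all genes passed 2-fold downward with the pseudocount. The 9 genes were chosen after seeing the data. Btg2, an antiproliferative gene from the wider regulation list that is itself inducible, was at 31.6 CPM in osteoclasts and 224 in tissue macrophages. In microglia and Clec4a-high precursors the 9 genes summed to 9639 and 7148 CPM, above tissue macrophages, while Cdkn1a was at 136 and 174 CPM against 169. Their part in the Cdkn1a and Btg2 values was not tested.

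**Figure D3:**
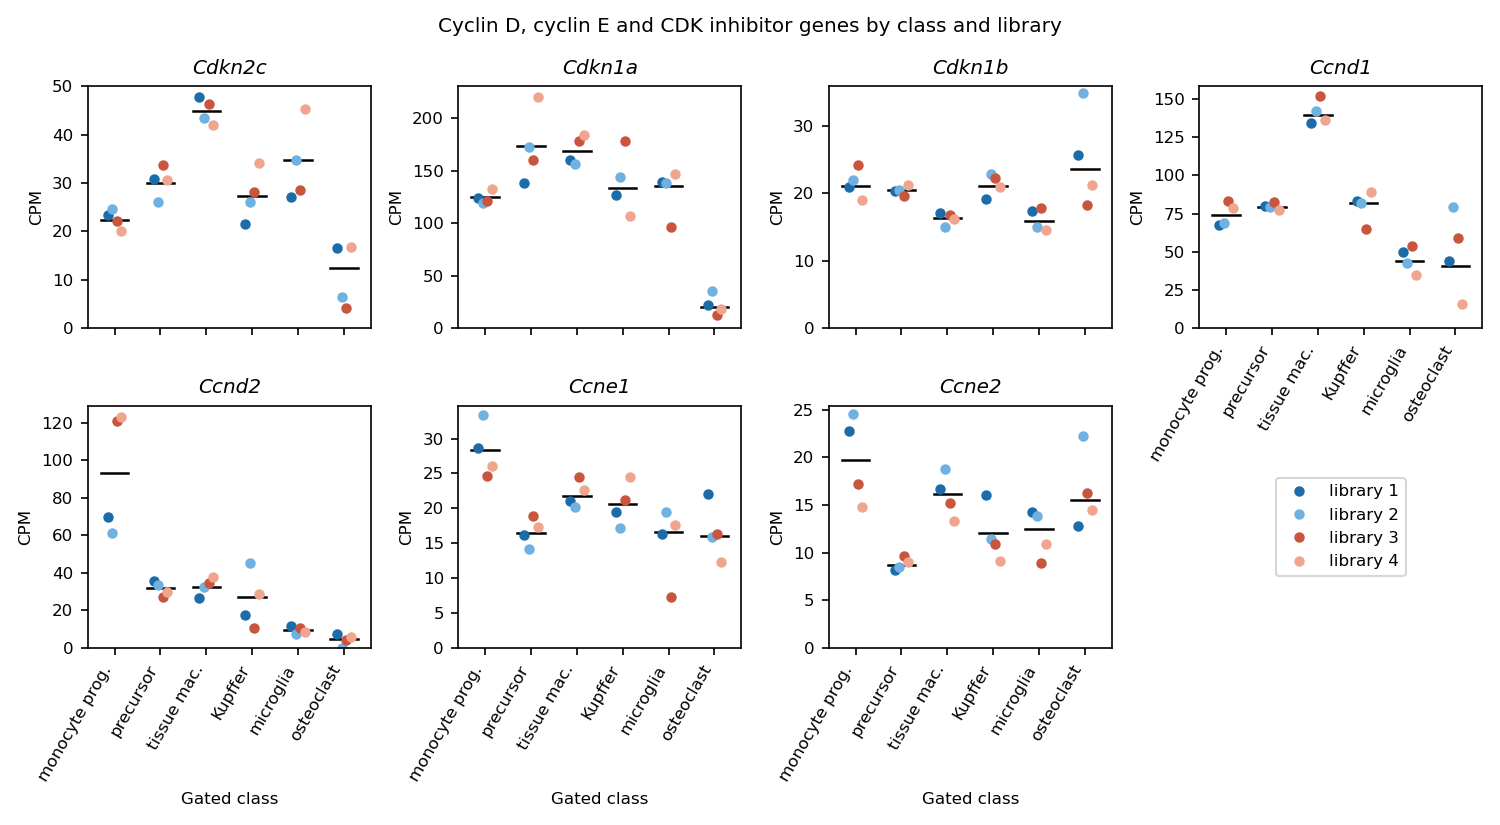
Level of the 7 regulators (y axis, CPM, each panel on its own scale from 0) in 6 gated classes (x axis), with dots for libraries 1 to 4 and a black line for the pooled value. The 4 osteoclast libraries lie below all tissue macrophage libraries for Cdkn2c, Cdkn1a, Ccnd1 and Ccnd2 and above them for Cdkn1b. Of all genes 26.8% lie below and 27.7% above in osteoclasts. Cdkn1b also lies above in Kupffer or island macrophages and Clec4a-high precursors.

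The regulators were then read across states that they did not define, by sorting the tissue macrophage barcodes into those high for neither list (2833), for S phase only (1983), for both (1410) and for G2/M only (1045). Median depth before thinning was 11936, 15097, 19333 and 14285 UMIs in that order. Ccne1 ran at 4.19, 28.4, 48.3 and 3.89 CPM over these states and Ccne2 at 1.76, 22.4, 36.3 and 1.498. Both E cyclins were thus high wherever S phase RNA was high and near the level of neither list with G2/M alone, in each library. Cdkn2c ran at 6.60, 14.9, 93.2 and 101 CPM, and followed the G2/M list. Ccnd1 was highest with S phase alone, at 109, 197, 140 and 101 CPM. Cdkn1a was highest with neither list, at 238, 148, 135 and 103 CPM.

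**Figure D4:**
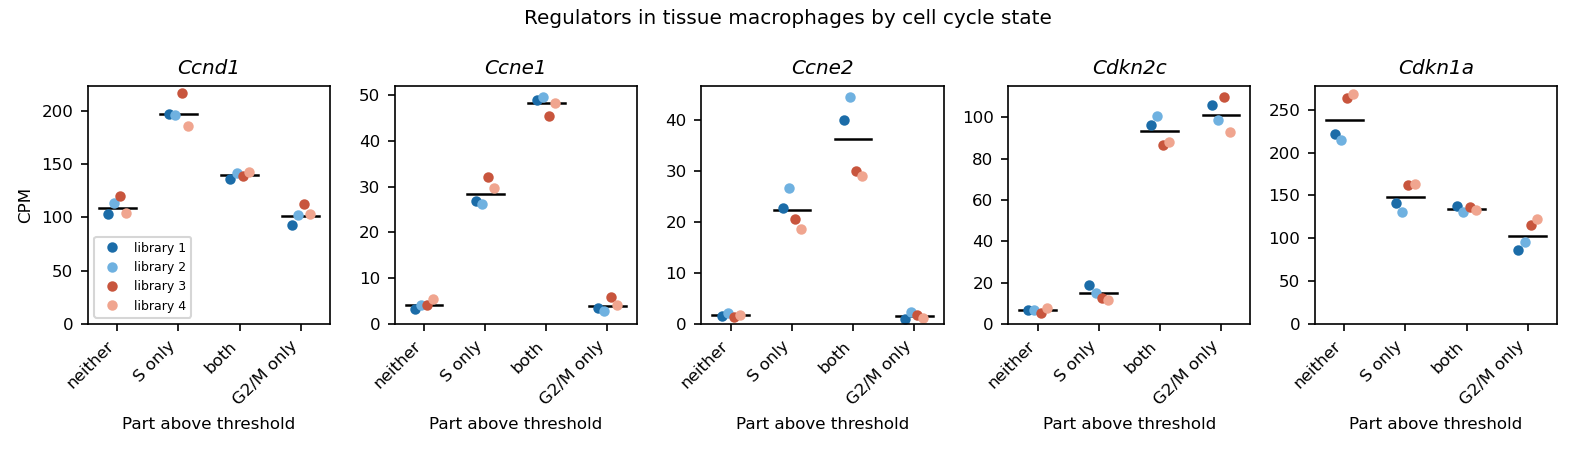
Level of 5 regulators (y axis, CPM, from 0) in tissue macrophage barcodes high for neither list, S phase only, both, or G2/M only (x axis), with dots for libraries 1 to 4 and a black line for the pooled value. Ccne1 and Ccne2 peak with both lists high, at 48.3 and 36.3 CPM, Cdkn2c stays high with G2/M alone, at 101 CPM, and Cdkn1a is highest with neither, at 238 CPM.

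In microglia, Kupffer or island macrophages, Clec4a-high precursors, monocyte progenitors and osteoclasts, pooled over libraries, Ccne1 and Ccne2 were also higher in the states with S phase RNA high than in the others, and Cdkn2c in the states with G2/M RNA high. Ccnd1 was highest with S phase alone in these classes except osteoclasts. Cdkn1a was highest with neither list except in microglia and osteoclasts. In microglia Ccne1 was at 2.19, 42.2, 55.1 and 4.05 CPM and Cdkn2c at 5.37, 25.0, 108 and 82.6 CPM over the states. In Clec4a-high precursors Ccnd1 was at 58.4, 154, 66.9 and 48.6 CPM and in monocyte progenitors at 44.9, 101, 72.1 and 54.6. Cdkn2c with G2/M alone was lower in monocyte progenitors (45.1 CPM) and in Kupffer or island macrophages (34.9 CPM) than in tissue macrophages.

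Within states, pooled over libraries, Cdkn1a and Ccnd1 were also lower in osteoclasts than in tissue macrophages. Ccnd2 is not given by state. Among osteoclast barcodes high for neither list (40) and for either (49), Cdkn1a was at 11.5 and 24.5 CPM, whereas in tissue macrophages it was at 238 and 133. Ccnd1 was at 27.5 and 40.0 CPM against 109 and 155. In barcodes high for both lists Cdkn2c was at 25.5 CPM in osteoclasts (exact Poisson 95% interval 15.1 to 40.3) and 93.2 in tissue macrophages. Ccne1 and Ccne2 were at 2.30 and 1.15 CPM with neither list and at 23.7 and 25.2 with either, so the E cyclins were high in the same osteoclast barcodes as the replication genes.

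Osteoclast barcodes high for either list, pooled over libraries, had lower levels of late osteoclast genes and also of the receptors Csf1r and Tnfrsf11a. Ocstamp was at 227 CPM with neither list and 121 with either, Dcstamp at 236 and 112, and Nfatc1 at 340 and 252. Itgb3, a subunit of the integrin by which mature osteoclasts hold to bone, was at 21.8 CPM (19 UMIs) and 2.22 CPM (3 UMIs). The receptors Csf1r and Tnfrsf11a (RANK), through which the 2 osteoclast cytokines act, were at 572 and 297 CPM and at 75.8 and 47.5 CPM. The median rate of the gate genes was 89.1 per 10000 with neither list and 35.4 with either, and the median depth 20349 and 27295 UMIs.

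Read from the marker side, 47 osteoclast barcodes with at least 50 gate UMIs per 10000 were compared with 42 below that. The higher tier had 31.9% S phase high and 34.0% G2/M high, the lower 50 and 47.6%. Either list was high in 44.7% (21 of 47, exact binomial 95% interval 30.2 to 59.9%) and 66.7% (28 of 42, 50.5 to 80.4%), so the intervals overlapped. By library the share with either list high was lower in the higher tier in all 4 libraries, each tier holding 6 to 21 barcodes per library, with median depths of 26253 and 18576 UMIs over the tiers. Over all 100 barcodes Ccnd1 was at 15.2 CPM in the higher tier (exact Poisson 95% interval 9.29 to 23.5) and 77.3 in the lower (60.5 to 97.3), and Cdkn1a at 12.2 and 31.1. The lower tier had Ocstamp at 63.3 CPM and no UMI of Itgb3 or Oscar, which allows up to 3.96 CPM of each. The higher tier had Ocstamp at 230 CPM and Itgb3 at 16.7. Tnfrsf11a was at 60.8 CPM in the higher tier and 55.8 in the lower, and Csf1r at 377 and 445.

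**Figure D5:**
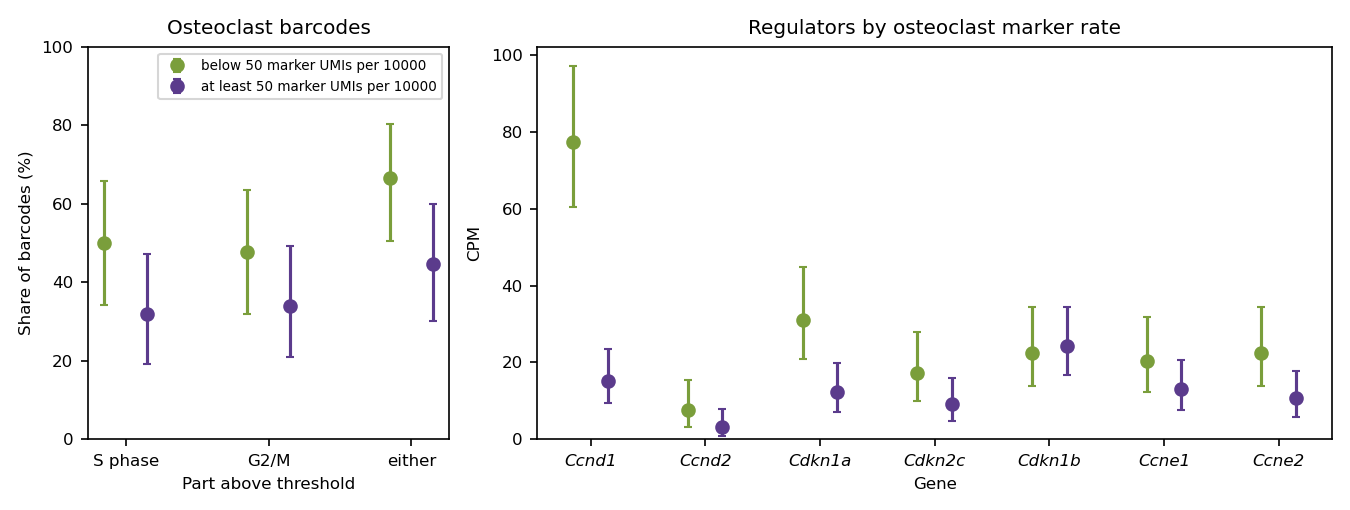
Left, share of osteoclast barcodes (y axis, percent) high for S phase, G2/M or either list, with exact binomial 95% intervals; right, level of the 7 regulators (y axis, CPM) with exact Poisson 95% intervals. Green marks barcodes with under 50 and purple those with at least 50 osteoclast gate UMIs per 10000; the intervals of the shares overlap, whereas Ccnd1 is at 77.3 CPM in the first and 15.2 in the second.

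Other genes of the same processes, outside the module, were read from lists of 35 replication, 43 mitosis and 32 cycle regulation genes. Against tissue macrophages the replication list had a median of -0.04 in osteoclasts, -0.47 in microglia and 0.44 in monocyte progenitors, and the mitosis list 0.01, -0.26 and 0.64. In osteoclasts 1 mitosis gene passed 2-fold upward, Espl1 (separase, 26.3 against 8.08 CPM), where 6.82% of all genes passed, and 2 regulation genes downward, Btg2 and the inhibitor Cdkn1c (6.23 against 42.6 CPM), where 11.1% passed. In monocyte progenitors 1 replication gene (Dut), 2 mitosis genes (Spc24 and Cks2) and 2 regulation genes passed upward, against 3.55% of all genes, and Cdkn1c downward (7.43 CPM), against 7.97%. The 2 regulation genes were Ccnd3 and the inhibitor Cdkn2d (79.1 against 29.9 CPM). These were picked for passing 2-fold. Cks1b, a small subunit of the cyclin-dependent kinases, was at 221 CPM in tissue macrophages, 252 in osteoclasts, 143 in microglia and 400 in monocyte progenitors. Lig1, which joins lagging strand fragments, was at 95.02, 59.2, 49.9 and 146 CPM in that order. Btg1 and Btg2, which restrain proliferation, were at 631 and 633 CPM in microglia, above tissue macrophages (267 and 224). Classes with higher shares were above too: Ly6c2-high monocytes at 685 and 362 CPM and monocyte progenitors at 401 and 352. Clec4a-high precursors stood at 530 and 384 CPM. Both genes were below tissue macrophages in Kupffer or island macrophages (160 and 199) and granulocyte-monocyte progenitors (196 and 89.5).

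Among tissue macrophages, barcodes with a tdTomato UMI after thinning had lower shares than those without. The S phase share was 41.1% of 2838 barcodes with tdTomato and 50.2% of 4433 without, and the G2/M share 29.1 and 36.7%. In libraries 1 to 4 the S phase share was 40.4, 41.5, 43.2 and 40.1% with tdTomato and 47.8, 48.9, 56.2 and 52.2% without. The direction was the same in every library for both lists. Median depth before thinning was 12863 and 14858 UMIs. Apoe, an abundant macrophage RNA, moved the same way, at 30022 CPM in tissue macrophage barcodes high for neither list and 17386 in those high for either. The tdTomato RNA itself was at 330 and 188 CPM in them. What RNA content per cell adds to the tdTomato comparison was not tested. In osteoclasts the S phase share was 41.7% of 36 barcodes with and 39.6% of 53 without a tdTomato UMI.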

How the data were processed

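The deposited file is a matrix of UMI counts per gene and barcode, made by the authors with Cell Ranger (2.1.1 per the submitters' processing notes, 3.0.1 per the file headers) on mm10, from 10x Genomics 3′ libraries per the labels' protocols. The counts were not normalized by the authors. Barcodes with at least 1000 UMIs, 500 genes and at most 10% mitochondrial UMIs were kept; no doublet caller was run. Thinning drew 5000 UMIs per barcode without replacement and left out shallower ones. CPM values are summed counts per 1000000 UMIs of a class, and the background over all genes used those with at least 20 CPM in either class. Members, lists and rules were chosen with earlier results of these data known; gate thresholds were set from marker levels without reading the members. The split of osteoclast barcodes at 50 gate UMIs per 10000, the immediate early genes and the comparisons of microglia and precursors were chosen after seeing the data. Members were to be described by list. Library values were planned for the 3 most abundant S phase and G2/M members in tissue macrophages and all 7 regulators. Ranges or counts were planned for the others. Wider lists were given by counts and abundant genes, and held-out marker genes served as checks. With no sample names on barcodes, no test, SD or p-value was computed. The 4 libraries held 106500620 to 198754246 UMIs. Scripts used Python 3.11.15, numpy 2.4.6, scipy 1.17.1 and pandas 2.3.3, and were tested on simulated data. Counts from 3′ ends do not compare levels between genes.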

Additional observations from a re-analysis of the deposited data

How the results depend on the processing

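No paired analysis was possible because the barcodes carry no sample name and the labelled groups, which share replicate numbers, could not be compared; differences between cell types lie within the same 4 libraries and are given by library. Over 16 results and 158 alternatives 28 moved by more than their error. No difference past 2-fold changed sign, but 2 medians did: that of the Clec4a-high G2/M list with a stricter gate, and that of the osteoclast S phase list without library 4 and, at 0.011, with at least 2000 UMIs and at most 5% mitochondrial UMIs. The cause was not tested. At 5 UMIs per 10000 the S phase and G2/M shares were 63.2 and 46.0% in tissue macrophages and 58.4 and 60.7% in osteoclasts; at 20 per 10000 they were 23.2 and 23.3%, and 22.5 and 29.2%. Thinning to 2000 UMIs gave 49.96 and 37.6% in tissue macrophages, thinning to 10000 gave 49.3% for S phase, and no thinning gave 42.6 and 31.5%, with 52.0% for G2/M in osteoclasts. Without the 5% of barcodes with most UMIs the tissue macrophage shares were 45.1 and 31.3%, and the microglia S phase median was -0.63. That median was -0.66 with a pseudocount of 1 CPM and -0.32 with 50 CPM, where the progenitor medians were 0.39 and 0.69. A stricter gate turned the Clec4a-high medians to -0.37 (S phase) and -0.11 (G2/M). In osteoclasts, with 50 CPM, Cdkn1a became -1.64, Cdkn2c -0.60 and Ccnd2 -0.59, the latter 2 no longer past 2-fold.

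Leaving out each library in turn, the tissue macrophage shares ran from 45.9 to 47.2% (S phase) and 33.2 to 34.6% (G2/M), and the osteoclast shares from 37.7 to 42.6% and 33.9 to 44.1%. The S phase and G2/M medians ran from -0.13 to 0.074 and 0.04 to 0.23 in osteoclasts, -0.56 to -0.51 and -0.36 to -0.19 in microglia, -0.14 to -0.08 and 0.14 to 0.26 in Clec4a-high precursors, and 0.54 to 0.59 and 0.86 to 0.97 in monocyte progenitors. Without library 4 the osteoclast S phase median was 0.074 and changed sign. Only 100 osteoclast barcodes, 16 to 43 per library, limit every osteoclast value.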
